A study of Homo sapiens with 20 samples.

Results

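The genes described here are 10 human antioxidant enzymes, 6 glutathione peroxidases (GPX1, GPX2, GPX3, GPX4, GPX7 and GPX8), 3 superoxide dismutases (SOD1, SOD2 and SOD3) and catalase (CAT), chosen by gene symbol from the 60232 genes of an RNA-seq table. They were followed in 20 libraries from 5 gastric cancer cell lines, each treated for 72 h with decitabine (DCB) or with DMSO as the control, with 2 libraries for each line and treatment. Epstein-Barr virus is present in YCCEL1 and SNU719 (EBV+) and absent from AGS, HGC27 and SNU16 (EBV−). The CpG island methylator phenotype is shared by YCCEL1, SNU719 and AGS (CIMP+) but not by HGC27 and SNU16 (CIMP−). All lines were labelled wild type, and the DMSO cells of a line served as its own reference. The comparison of DCB with DMSO asked what the demethylating agent changed in each line, and the comparison across lines asked whether that change differed with EBV or CIMP status. Since no source tells whether paired libraries came from separate cultures, p-values measure only the spread between these libraries. The sources conflict on a line and on the medium. The line that the labels call HGC27 is MKN74 in the study's methods. The study's results name MKN74 among the treated lines but also HGC27, which they give as CIMP−. Results on this line, and on the CIMP− and EBV− lines it belongs to, therefore rest on an unsettled identity. The labels put YCCEL1 and HGC27 in EMEM and the other lines in RPMI, whereas the methods name RPMI for all lines.

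Superoxide dismutases convert superoxide into hydrogen peroxide, with SOD1 in the cytosol, SOD2 in mitochondria and SOD3 outside the cell. Catalase, a peroxisomal heme enzyme, breaks hydrogen peroxide down to water and oxygen. Glutathione peroxidases reduce hydrogen peroxide or lipid peroxides, most of them with glutathione as the electron donor. GPX1, GPX2, GPX3 and GPX4 are selenoproteins that carry selenocysteine in the active site, whereas GPX7 and GPX8 carry cysteine and reside in the endoplasmic reticulum. Decitabine resembles deoxycytidine, binds DNA methyltransferases once it sits in DNA, and so lowers methylation at CpG sites as cells divide.

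All 10 genes passed the filter on low values, 7 of them with values above 0 in all 20 libraries, GPX3 in 14, GPX7 in 11 and SOD3 in 7. SOD3 was at 0 in every DMSO library, and GPX7 was above 0 in DMSO only in HGC27, at 1.11 and 2.32. Both passed the filter only through their DCB libraries, so the filter itself favoured a rise, and SOD3 could not have been called lower. In the GRCh38 coordinates of the table, GPX1 lies at chr3:49357176-49358353, GPX2 at chr14:64939152-64942905, GPX3 at chr5:151020438-151028992, GPX4 at chr19:1103926-1106791, GPX7 at chr1:52602371-52609051 and GPX8 at chr5:55160167-55167297. SOD1 lies at chr21:31659666-31668931, SOD2 at chr6:159669069-159762529, SOD3 at chr4:24789912-24800842 and CAT at chr11:34438934-34472060. The annotated span of SOD2 overlaps ACAT2 and WTAP on the opposite strand, and that of GPX2 overlaps CHURC1, which is also read from the opposite strand. How much of each gene the overlap covers was not measured. The sources differ on whether the libraries kept strand, so reads in these overlaps may have been split between genes, and SOD2 and the low values of GPX2 are uncertain for that reason.

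CpG sites are the targets of the methylation that DCB removes, so the bases before the start of 4 genes are shown: GPX1, GPX3 and GPX7, which rose in several lines, and CAT, which fell. The sequences are RefSeq's on GRCh38.p14, 5′ to 3′ on the strand of the gene, with each CpG in capitals. Each window covers 250 bases, except that of GPX3, which ends after 97 bases where the table places the gene's start.
GPX1, chr3:49358354-49358603, minus strand: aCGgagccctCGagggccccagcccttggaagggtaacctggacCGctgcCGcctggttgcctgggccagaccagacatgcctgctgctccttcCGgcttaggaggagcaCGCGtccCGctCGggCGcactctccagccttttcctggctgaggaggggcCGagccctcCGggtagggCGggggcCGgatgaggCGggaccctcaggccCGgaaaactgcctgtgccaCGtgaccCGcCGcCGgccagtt
GPX3, chr5:151020341-151020437, plus strand: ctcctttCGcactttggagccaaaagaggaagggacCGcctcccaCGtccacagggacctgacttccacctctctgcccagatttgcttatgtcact
GPX7, chr1:52602121-52602370, plus strand: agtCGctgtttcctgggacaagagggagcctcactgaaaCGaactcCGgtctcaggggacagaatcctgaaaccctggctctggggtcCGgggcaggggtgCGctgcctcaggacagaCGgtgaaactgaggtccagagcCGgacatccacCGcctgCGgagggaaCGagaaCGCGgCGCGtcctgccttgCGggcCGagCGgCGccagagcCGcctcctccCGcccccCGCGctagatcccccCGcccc
CAT, chr11:34438684-34438933, plus strand: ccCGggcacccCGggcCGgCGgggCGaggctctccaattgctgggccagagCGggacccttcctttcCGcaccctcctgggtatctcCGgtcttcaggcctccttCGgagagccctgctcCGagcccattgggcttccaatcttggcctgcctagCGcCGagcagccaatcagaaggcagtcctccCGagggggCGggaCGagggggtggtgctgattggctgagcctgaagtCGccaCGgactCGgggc

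RefSeq windows matched 9 of the 10 genes, all but SOD1. Counted over 250 bases before the RefSeq start, the median of all 35116 windows was 11 CpGs. GPX1 held 20, GPX3 17, GPX7 23 and CAT 18, and 32.4%, 39.0%, 25.8% and 36.8% of all windows held at least as many. SOD3 held 10 CpGs, and GPX2 and GPX8 held 3 each, a count that 77.1% of windows reached. The 3 windows of GPX4 held 33, 33 and 37 CpGs, and the 4 windows of SOD2 held 33, 26, 35 and 19. The genes that rose therefore included windows rich in CpG and, with SOD3, one near the median, and CAT, which fell, held about as many as GPX3. The core of the antioxidant response element, searched as TGACNNNGC on both strands, was found in 1 member, GPX2, as TGACTTAGC on the strand opposite to the gene with its far end 122 bases before the start. The same letters occurred in 10.9% of all windows. The CCAAT box, searched on both strands, occurred in at least 1 window of 6 of the 9 matched genes (GPX2, GPX3, GPX4, SOD2, SOD3 and CAT), 5 times before CAT and at most 3 times in any window of the others, and 32.0% of all windows held at least 1.

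Library totals in the deposited normalized values ran from 7764408 to 9321014, mitochondrial transcripts took 5.80% to 14.3% of them, and a value of 0.754 to 1.21 corresponded to about 1 read for many low genes. Values near 1 therefore rest on very few reads. Epithelial markers (EPCAM, KRT8, KRT18, KRT19 and CDH1) summed to 31499 or more in every library of YCCEL1, SNU719, AGS and SNU16. In HGC27 they summed to 609 and 485 with DCB, against 115 and 173 with DMSO, and 6 fibroblast markers led by collagens summed to 52648 and 49757 with DCB, against 47594 and 48174 with DMSO. HGC27, labelled gastric cancer like the other lines, thus lacked most of the epithelial signal that they had, and each result on HGC27 stands beside that fact. Over all 10 groups the sums of epithelial markers ranged from 485 to 101130 with DCB and from 115 to 93056 with DMSO. Several marker sums moved with the treatment in lines where members changed. In AGS epithelial markers summed to 51088 and 48956 with DCB, against 31676 and 31499 with DMSO, and fibroblast markers to 2007.5 and 1926.5 with DCB, against 291 and 303 with DMSO. Leukocyte markers summed to 656 and 728 with DCB, against 54.5 and 67.9 with DMSO in SNU719, to 351 and 371 with DCB, against 98.8 and 151 with DMSO in YCCEL1, and to 274 in both DCB libraries, against 28.4 and 27.8 with DMSO in AGS. Fibroblast and leukocyte sums were above the DMSO libraries of the same line in every DCB library. Endothelial and erythroid markers summed to at most 44.9 and 530 in any library. The part of these markers in the results below was not tested. In such bulk libraries a gene expressed in fewer cells and less RNA per cell cannot be told apart.

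Over the 5 lines, GPX1, GPX3, GPX4, GPX7 and SOD3 rose with DCB and CAT fell, while GPX2, GPX8, SOD1 and SOD2 did not pass the test. A gene was called at an adjusted p below 0.05 in limma with Benjamini-Hochberg adjustment over 27350 genes. The background was 17.9% of all genes called higher and 6.94% called lower, beside 5 and 1 of the 10 members. GPX7 and SOD3 entered the test only through their DCB libraries. Their rises, p-values and places in these counts and those below are therefore not separate support. Among the 7 members without a group at 0, the median log2 difference was 0.08, against 0.15 over all genes tested. GPX3, GPX7 and SOD3, which were listed at 0 in some groups, had adjusted p-values over the lines of 0.000188, 0.000366 and 0.00693. With libraries scaled to equal upper quartiles 9 members were called over the lines, with GPX2 (0.56, adjusted p = 0.00848), SOD1 (0.39, adjusted p = 0.00136) and SOD2 (0.39, adjusted p = 0.00464) now higher. Under that scaling the background also moved, with 10415 of all 27350 genes called higher and 324 lower. In AGS 6 members rose and 2 fell, where 18.5% of all genes were called higher and 9.13% lower. In SNU719 4 rose and 2 fell, against 13.5% and 7.64% of all genes. In HGC27 4 rose and 2 fell, against 14.7% and 9.03%. In YCCEL1 3 rose and none fell, against 14.6% and 6.93%. In SNU16 1 rose and none fell, against 4.50% and 2.34%. No member with values above 0 in both groups passed the limit of 2 on the log2 fold change that the study used. Below, differences are DCB minus DMSO of log2(value + 1), which understates the change of low genes, and no fold is given where all libraries of a group are listed at 0. It is also said where the DCB and DMSO libraries of a line did not overlap. The share of all genes without overlap was not measured, so such separation is description and not support for a change.

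**Figure D1:**
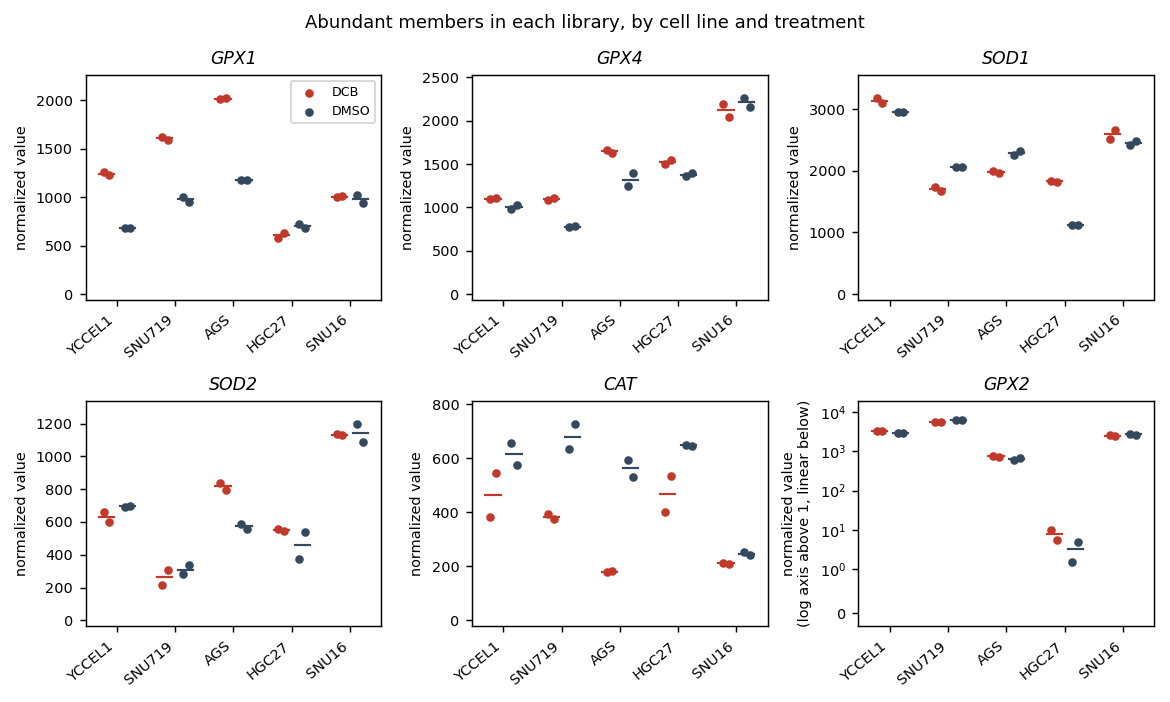
Normalized values (y axis) of GPX1, GPX4, SOD1, SOD2, CAT and GPX2 in each of the 20 libraries by line, with DCB in red on the left and DMSO in dark blue on the right. Points are libraries and bars their means, and the axis of GPX2 is logarithmic above 1. GPX1 with DCB stood at 1227 to 2024 in YCCEL1, SNU719 and AGS, above every DMSO library of the same line, and CAT in AGS stood at 179 and 181 with DCB, against 594 and 532 with DMSO.

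GPX1, the cytosolic and mitochondrial enzyme that reduces hydrogen peroxide, rose in the 3 CIMP+ lines. Its normalized values in YCCEL1 were 1259.8 and 1227 with DCB, against 679.8 and 683 with DMSO. In SNU719 they were 1624 and 1591 with DCB, against 1005 and 949 with DMSO, and in AGS 2011 and 2024 with DCB, against 1174 and 1179 with DMSO. The groups did not overlap in these lines, and the 2 libraries of a group lay close together. The differences were 0.87 ± 0.06 (SE, adjusted p = 1.99e-07) in YCCEL1, 0.72 ± 0.06 (SE, adjusted p = 1.44e-06) in SNU719 and 0.78 ± 0.06 (SE, adjusted p = 3.92e-07) in AGS. HGC27 gave the opposite sign, with 583 and 629 with DCB, against 720.0 and 679 with DMSO, a difference of −0.21 ± 0.06 (SE, adjusted p = 0.0223). That fall was lost without DMSO replicate 1 (adjusted p = 0.134) or DCB replicate 1 (adjusted p = 0.160), it was not called with libraries scaled to equal totals (−0.07, adjusted p = 0.444), and its sign turned to 0.08 with equal upper quartiles. SNU16 had 1000.0 and 1011 with DCB, against 1022 and 943 with DMSO, which overlapped and differed by 0.03 ± 0.06 (SE, adjusted p = 0.879). Over the 5 lines the difference was 0.44 ± 0.11 (SE, adjusted p = 0.00719).

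GPX4, the enzyme that reduces phospholipid hydroperoxides in membranes and restrains ferroptosis, rose in 2 CIMP+ lines by less than GPX1. In SNU719 it had 1084 and 1105 with DCB, against 769.6 and 788 with DMSO, and in AGS 1667 and 1624 with DCB, against 1242 and 1396 with DMSO, without overlap in either line. The differences were 0.49 ± 0.06 (SE, adjusted p = 5.22e-05) and 0.32 ± 0.06 (SE, adjusted p = 0.00123). In YCCEL1 it had 1094 and 1109 with DCB, against 982 and 1031 with DMSO, and in HGC27 1505 and 1542 with DCB, against 1360.2 and 1392 with DMSO, also without overlap, but neither passed the test (adjusted p = 0.160 and 0.103). Both were called higher under the other scalings, YCCEL1 at 0.24 with equal library totals (adjusted p = 0.0100) and 0.51 with equal upper quartiles (adjusted p = 6.29e-05), and HGC27 at 0.28 (adjusted p = 0.00267) and 0.43 (adjusted p = 0.000207). SNU16, with the highest GPX4 of the 5 lines, had 2198 and 2039 with DCB, against 2261 and 2163 with DMSO (adjusted p = 0.691). The difference over the lines was 0.21 ± 0.06 (SE, adjusted p = 0.0173), and it was not called in a fit without a trend in the variance (adjusted p = 0.0706).

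GPX2, the gastrointestinal epithelial form and a known target of NRF2, separated the lines more than the treatments. In YCCEL1 it had 3349.8 and 3282 with DCB, against 2934 and 2946 with DMSO, and in SNU719 5636 and 5585 with DCB, against 6329 and 6290.2 with DMSO. SNU16 had 2515 and 2389 with DCB, against 2701 and 2609.9 with DMSO, and AGS 746 and 731 with DCB, against 609.7 and 659 with DMSO. The groups of each line did not overlap, with DCB higher in YCCEL1 and AGS and lower in SNU719 and SNU16, yet no difference was called (adjusted p = 0.657 to 0.949). The spread that the test used for GPX2 was shared by all groups and included HGC27, where the values were near those of a few reads. In HGC27 GPX2 had 10.1 and 5.61 with DCB, against 1.51 and 4.98 with DMSO, a difference of 1.15 ± 0.29 (SE, adjusted p = 0.00988). That call was lost without DMSO replicate 1, at 0.52 (adjusted p = 0.0920), or without DCB replicate 1, at 0.77 (adjusted p = 0.132). CHURC1, which overlaps GPX2, had 398 and 441 with DCB in HGC27, against 490 and 431 with DMSO, and its part in these low values was not tested. With SNU719 fitted alone, the difference of −0.17 was called (adjusted p = 0.0230).

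**Figure D2:**
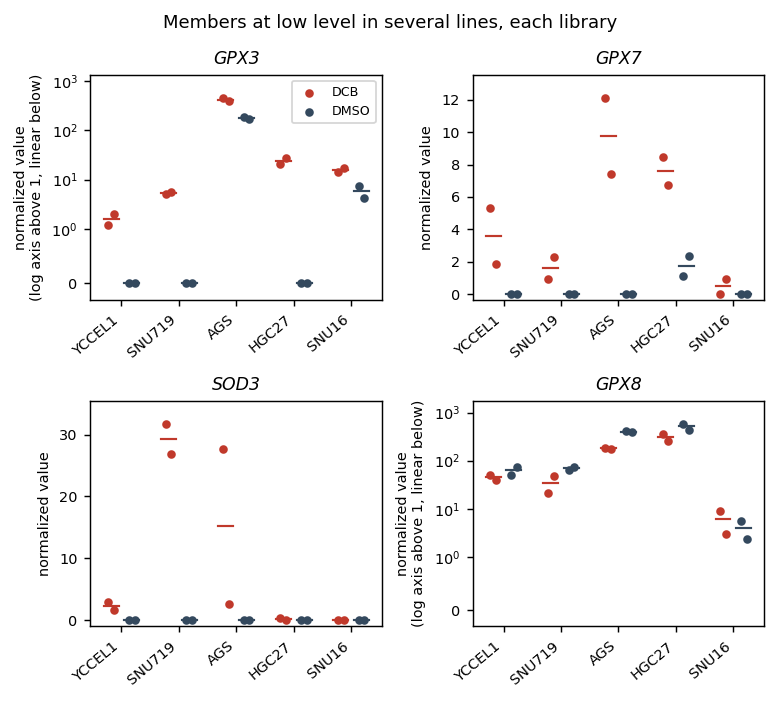
Normalized values (y axis) of GPX3, GPX7, SOD3 and GPX8 in each of the 20 libraries by line, with DCB in red on the left and DMSO in dark blue on the right. Points are libraries and bars their means, and the axes of GPX3 and GPX8 are logarithmic above 1. SOD3 is listed at 0 in every DMSO library, and its 2 DCB libraries of AGS stood at 27.7 and 2.58.

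GPX3, the secreted plasma form, was higher with DCB in all 5 lines, from very different starting levels, 0 among them. In AGS, the line with the most GPX3, it had 454 and 390.0 with DCB, against 188 and 169 with DMSO, a difference of 1.24 ± 0.34 (SE, adjusted p = 0.0145). SNU16 had 14.01 and 16.9 with DCB, against 7.30 and 4.23 with DMSO, a difference of 1.32 ± 0.34 (SE, adjusted p = 0.0334). In the other lines GPX3 was listed at 0 in both DMSO libraries. It could not have fallen there, so the shared direction of those lines is not support. It had 20.3 and 27.3 with DCB in HGC27 (adjusted p = 2.46e-07), 5.08 and 5.64 in SNU719 (adjusted p = 6.71e-05), and 1.18 and 2.04 in YCCEL1 (adjusted p = 0.0104). The values of YCCEL1 correspond to a few reads at most, and its call was lost without DCB replicate 2 (adjusted p = 0.0776) and with a pseudocount of 5 (adjusted p = 0.219). The call in AGS was lost without DMSO replicate 2 (adjusted p = 0.0776) or DCB replicate 1 (adjusted p = 0.0816). In SNU16 it was lost without DMSO replicate 2 (adjusted p = 0.231), DCB replicate 1 (adjusted p = 0.0817) or DCB replicate 2 (adjusted p = 0.165). In these lines the DCB libraries were above the DMSO libraries throughout.

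GPX7, a peroxidase of the endoplasmic reticulum, stood below 13 in every library. It was listed at 0 in all DMSO libraries but those of HGC27. With DCB it had 12.1 and 7.39 in AGS (adjusted p = 8.91e-05), 5.30 and 1.83 in YCCEL1 (adjusted p = 0.00533) and 0.922 and 2.27 in SNU719, which did not pass (adjusted p = 0.0597) but did with equal upper quartiles (adjusted p = 0.0301). In HGC27 it had 8.49 and 6.71 with DCB, against 1.11 and 2.32 with DMSO, a difference of 1.70 ± 0.47 (SE, adjusted p = 0.0166). SNU16 had 0 and 0.945 with DCB, against 0 in both DMSO libraries (adjusted p = 0.694). Without DCB replicate 1 the call in YCCEL1 was lost (adjusted p = 0.0626), and that in HGC27 was lost without DCB replicate 1 (adjusted p = 0.0890) or DMSO replicate 1 (adjusted p = 0.119).

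GPX8, the membrane-bound relative of GPX7, was not called in any line. In AGS it had 183 and 176 with DCB, against 410.4 and 389 with DMSO, a difference of −1.15 ± 0.45 (SE, adjusted p = 0.0748). In SNU719 it had 21.4 and 48.2 with DCB, against 62.5 and 75.4 with DMSO (adjusted p = 0.115), in HGC27 353 and 261 with DCB, against 585 and 442 with DMSO (adjusted p = 0.283), and in YCCEL1 51.3 and 39.2 with DCB, against 51.3 and 75.4 with DMSO (adjusted p = 0.552). The DCB libraries were below the DMSO libraries in AGS, SNU719 and HGC27 and overlapped them in YCCEL1 and in SNU16, where all 4 values were below 9. Over the lines the difference was −0.60 ± 0.23 (SE, adjusted p = 0.0613), and it was called without SNU16 DMSO replicate 2 (adjusted p = 0.0123) or SNU16 DCB replicate 1 (adjusted p = 0.00591). It was called in SNU719 without DCB replicate 2, at −1.64 (adjusted p = 0.0427), and in AGS fitted alone (adjusted p = 0.00596).

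SOD1, the copper- and zinc-binding enzyme of the cytosol, moved in opposite directions between lines. In HGC27 it had 1835 and 1827 with DCB, against 1124 and 1115 with DMSO, a difference of 0.71 ± 0.04 (SE, adjusted p = 1.70e-08). In SNU719 it had 1745 and 1679 with DCB, against 2058 and 2065 with DMSO, and in AGS 2001 and 1970.0 with DCB, against 2259.8 and 2322 with DMSO. These falls were −0.27 ± 0.04 (SE, adjusted p = 0.000276) and −0.21 ± 0.04 (SE, adjusted p = 0.00157). Without a trend in the variance neither fall was called (adjusted p = 0.0661 and 0.135). Groups did not overlap in any of the 3 lines. In YCCEL1 SOD1 had 3184 and 3104 with DCB, against 2951 and 2962 with DMSO (adjusted p = 0.149), and in SNU16 2524 and 2659 with DCB, against 2422 and 2483 with DMSO (adjusted p = 0.327). Over the lines the difference was 0.08 ± 0.09 (SE, adjusted p = 0.551). The rise in HGC27 kept its sign and call under every scaling tried, whereas the falls in SNU719 and AGS turned to 0.11 and 0.12 with equal upper quartiles, neither of which was called (adjusted p = 0.101 and 0.0740). In YCCEL1 SOD1 was called higher with equal library totals (0.20, adjusted p = 0.00348) and equal upper quartiles (0.47, adjusted p = 7.98e-06), and in SNU16 with equal upper quartiles (0.27, adjusted p = 0.00309).

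SOD2, the manganese enzyme of mitochondria, was called in AGS alone of the 5 lines. There it had 836 and 797 with DCB, against 590.3 and 559 with DMSO, a difference of 0.51 ± 0.16 (SE, adjusted p = 0.0334), and the call was lost when any 1 of the 4 AGS libraries was left out (adjusted p = 0.0854 to 0.143). In the same line ACAT2, which overlaps the SOD2 span, had 498 and 520 with DCB, against 231 and 228 with DMSO, and WTAP had 676 and 721 with DCB, against 618 and 638 with DMSO. The part of these genes in the SOD2 values was not tested. In HGC27 SOD2 had 556 and 543 with DCB, against 377 and 538 with DMSO (adjusted p = 0.250), and without DMSO replicate 2 the difference was 0.54 (adjusted p = 0.0354), as with equal upper quartiles it was 0.57 (adjusted p = 0.0238). YCCEL1 had 661 and 599 with DCB, against 691 and 698 with DMSO (adjusted p = 0.629), and SNU719 217 and 307 with DCB, against 281 and 337 with DMSO (adjusted p = 0.328). SNU16 had 1136 and 1129.9 with DCB, against 1195 and 1087 with DMSO (adjusted p = 1.00).

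SOD3, the extracellular superoxide dismutase, was listed at 0 in all 10 DMSO libraries and was above 0 in 7 of the 10 DCB libraries. In SNU719 it had 31.6 and 26.8 with DCB (adjusted p = 0.000103). In AGS it had 27.7 and 2.58 with DCB (adjusted p = 0.00164), libraries that lay farther apart than those of any other group of this gene. In YCCEL1 it had 2.96 and 1.70 (adjusted p = 0.0852), and in HGC27 0.439 and 0 (adjusted p = 0.870), values of at most a few reads. In SNU16 it was listed at 0 in all 4 libraries. The call in AGS was lost with that line fitted alone (adjusted p = 0.0974).

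CAT was lower with DCB in all 5 lines and was called in 3 of them. In AGS it had 179 and 181 with DCB, against 594 and 532 with DMSO, a difference of −1.64 ± 0.16 (SE, adjusted p = 3.39e-06), the lowest among the 10 genes and 5 lines. In SNU719 it had 394 and 375 with DCB, against 636 and 726 with DMSO, a difference of −0.82 ± 0.16 (SE, adjusted p = 0.00185). HGC27 had 402 and 534 with DCB, against 651 and 646 with DMSO, a difference of −0.48 ± 0.16 (SE, adjusted p = 0.0394). That call was lost without DMSO replicate 1 (adjusted p = 0.126), DMSO replicate 2 (adjusted p = 0.118) or DCB replicate 1, where the difference was −0.28 (adjusted p = 0.336). YCCEL1 had 382 and 548 with DCB, against 658 and 575 with DMSO (adjusted p = 0.0722), and without DCB replicate 2 the difference was −0.69 (adjusted p = 0.00898). SNU16 had 212 and 210.1 with DCB, against 252 and 243 with DMSO (adjusted p = 0.520). No DCB group overlapped the DMSO libraries of its line, a separation whose share over all genes was not measured. The difference over the lines was −0.72 ± 0.14 (SE, adjusted p = 0.000992). The sign was negative under every scaling in every line, but the calls were not all kept. With equal upper quartiles AGS kept its call, while SNU719 at −0.44 (adjusted p = 0.0893) and HGC27 at −0.20 (adjusted p = 0.501) were not called, and YCCEL1 lay at −0.05. HGC27 was not called with equal library totals either (−0.35, adjusted p = 0.138). Over the lines CAT was called under each scaling, at −0.41 with equal upper quartiles (adjusted p = 0.0252).

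**Figure D3:**
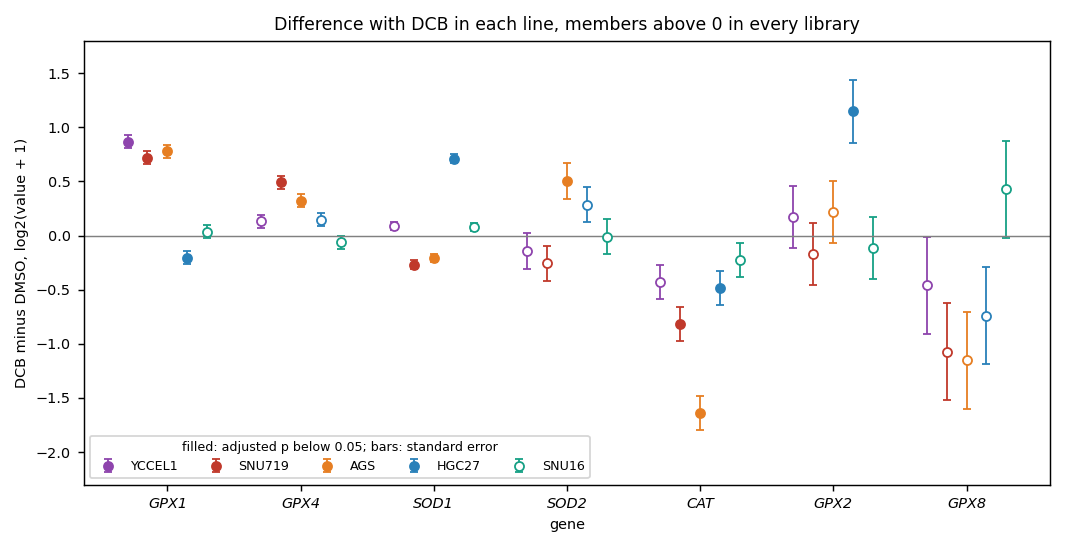
Difference between DCB and DMSO (y axis, log2 of value + 1) in each line for the 7 genes above 0 in every library, by gene on the x axis. Points are the fitted differences, bars standard errors and filled points an adjusted p below 0.05. GPX1 lies at 0.72 to 0.87 in YCCEL1, SNU719 and AGS, against −0.21 (0.08 with equal upper quartiles) and 0.03 in HGC27 and SNU16, SOD1 stands apart in HGC27 at 0.71, and CAT lies below 0 in all lines.

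The size of the response differed between the 5 lines for 7 of the 10 genes, GPX1, GPX3, GPX4, GPX7, SOD1, SOD3 and CAT, by a moderated F test in limma, where 34.2% of all genes were called. The largest and the smallest effect lay 1.07 apart for GPX1 (adjusted p = 7.55e-07), 0.98 for SOD1 (adjusted p = 1.46e-07), 1.41 for CAT (adjusted p = 0.00153) and 0.55 for GPX4 (adjusted p = 0.00185). The call of GPX4 was lost without a trend in the variance (adjusted p = 0.0697). GPX3, GPX7 and SOD3 had groups at 0 (adjusted p = 0.000317, 0.0305 and 0.00351), and the call of GPX7 was lost in 6 of the 20 fits that left out 1 library, those without SNU16 DMSO replicate 1 or 2, SNU16 DCB replicate 1, AGS DMSO replicate 1 or 2, or AGS DCB replicate 1 (adjusted p = 0.0635 to 0.0932). GPX2, GPX8 and SOD2 did not pass (adjusted p = 0.0982, 0.253 and 0.0793). GPX2 was called without HGC27 DMSO replicate 2 (adjusted p = 0.000642) or HGC27 DCB replicate 2 (adjusted p = 0.0425), and SOD2 without SNU719 DCB replicate 2 (adjusted p = 0.0188), HGC27 DMSO replicate 1 (adjusted p = 0.0484) or HGC27 DMSO replicate 2 (adjusted p = 0.0172).

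Between CIMP+ and CIMP− lines the effect differed for 6 genes, where 21.8% of all genes were called. The mean effect in CIMP+ lines minus that in CIMP− lines was 0.87 ± 0.05 (SE, adjusted p = 9.41e-08) for GPX1 and 0.27 ± 0.06 (SE, adjusted p = 0.00290) for GPX4. It was −0.52 ± 0.04 (SE, adjusted p = 2.90e-07) for SOD1 and −0.61 ± 0.14 (SE, adjusted p = 0.00773) for CAT, whose mean effect was lower in the CIMP+ lines. Without a trend in the variance GPX4 was not called (adjusted p = 0.0615). For GPX3 and SOD3, with groups at 0, the adjusted p was 0.0124 and 0.00164. GPX3 was the exception among the genes that rose, since its values in HGC27, at 20.3 and 27.3 with DCB against 0 in DMSO, gave the CIMP− lines the larger effect. GPX2, GPX7, GPX8 and SOD2 did not pass (adjusted p = 0.276, 0.0655, 0.236 and 0.691). GPX7 was called without YCCEL1 DCB replicate 2 (adjusted p = 0.0249), SNU719 DCB replicate 1 (adjusted p = 0.0483) or SNU16 DCB replicate 2 (adjusted p = 0.0365), and GPX2 without HGC27 DMSO replicate 2, at −0.75 (adjusted p = 0.00473). These p-values rest on the spread between libraries. With the 3 CIMP+ and 2 CIMP− lines as the units, an exact permutation test of the line effects cannot go below 0.1, the two-sided value that GPX1 reached. The other 9 genes had exact p-values of 0.2 to 0.7.

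Between EBV+ and EBV− lines the effect differed for 5 genes, where 19.7% of all genes were called. Both contrasts use the same 5 lines and are not separate evidence. The mean effect in YCCEL1 and SNU719 minus that in AGS, HGC27 and SNU16 was 0.59 ± 0.05 (SE, adjusted p = 4.30e-06) for GPX1, although AGS, which is EBV−, had an effect of 0.78 between those of the EBV+ lines. For SOD1 it was −0.28 ± 0.04 (SE, adjusted p = 9.11e-05). For GPX4 it was 0.18 ± 0.06 (SE, adjusted p = 0.0403) and for SOD2 −0.46 ± 0.15 (SE, adjusted p = 0.0446), and these calls were lost in 13 and 17 of the 20 fits that left out 1 library (highest adjusted p = 0.0964 and 0.115). For SOD3 the adjusted p was 0.0238, and the call was lost without YCCEL1 DCB replicate 1 (adjusted p = 0.0574) or SNU719 DCB replicate 1 (adjusted p = 0.0525). GPX2 did not pass at −0.42 (adjusted p = 0.322), but was called at −0.62 without HGC27 DMSO replicate 2 (adjusted p = 0.0120). Without a trend in the variance GPX4 and SOD2 were not called (adjusted p = 0.237 and 0.0912). With a pseudocount of 5 in place of 1, SOD3 was not called (adjusted p = 0.0642). GPX3, not called in the main fit (adjusted p = 0.467), was then called (adjusted p = 0.00648). Over lines, exact two-sided p-values were 0.2 or more for every member, and 0.1 is again the smallest that 10 ways of drawing the lines allow.

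In DMSO the levels of the 10 genes differed between many pairs of lines. Of 100 combinations of a gene and a pair of lines, 66 were called, beside 40.4% over all genes and pairs. GPX2 was highest in SNU719 at a mean of 6309.8, followed by YCCEL1 and SNU16 at 2940.3 and 2655, which did not differ beyond their spread (adjusted p = 0.798), then AGS at 635 and HGC27 at 3.25. GPX8 ran in a different order, with HGC27 and AGS at 513 and 399 (adjusted p = 0.590), SNU719 and YCCEL1 at 69.0 and 63.3 (adjusted p = 0.951) and SNU16 at 3.97. The lowest mean of GPX2 and the highest mean of GPX8 were thus found in HGC27, the line with the fewest epithelial transcripts.

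GPX1 in DMSO was highest in AGS at 1176, followed by SNU16 and SNU719 at 983 and 977 (adjusted p = 1.00) and by HGC27 and YCCEL1 at 699.6 and 682 (adjusted p = 0.684). GPX4 was highest in SNU16 at 2212, followed by HGC27 and AGS at 1376 and 1319 (adjusted p = 0.450), YCCEL1 at 1007 and SNU719 at 779. SOD1 was highest in YCCEL1 at 2956, then came SNU16 and AGS at 2452 and 2291 (adjusted p = 0.0702), SNU719 at 2062 and HGC27 at 1119. With the deposited scaling, the only called rise of SOD1 with DCB was thus in the line with the lowest SOD1. Under other scalings SOD1 was also called higher in YCCEL1, the line with the highest level, and in SNU16. A link between the level in DMSO and the rise was not tested. SOD2 was highest in SNU16 at 1141, and YCCEL1 and AGS at 695 and 575 did not differ beyond their spread (adjusted p = 0.249), nor did AGS and HGC27 at 575 and 458 (adjusted p = 0.0986), with SNU719 lowest at 309. CAT lay between 563 and 681 in SNU719, HGC27, YCCEL1 and AGS, whose neighbours in that order did not differ beyond their spread (adjusted p = 0.637 to 0.796), and was lower in SNU16 at 247. GPX3 was at 178 in AGS and 5.76 in SNU16 and was listed at 0 in the other lines, GPX7 was above 0 in HGC27 at 1.71, and SOD3 was above 0 in no line.

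EBV+ and EBV− lines differed in DMSO for 7 of the 10 genes, beside 46.7% of all genes. These p-values rest on the spread between libraries, although lines are the replicates of EBV status. DMSO levels were not tested with lines as the units, and an exact permutation test over these lines could not go below 0.1. GPX2 was higher in EBV+ lines by 4.53 ± 0.19 (SE, adjusted p = 1.35e-10), a difference that the near absence of GPX2 from HGC27 enters. Between the EBV+ line YCCEL1 and the EBV− line SNU16, GPX2 did not differ (adjusted p = 0.798). SOD1 and CAT were higher in EBV+ lines too, by 0.42 ± 0.03 (SE, adjusted p = 1.01e-08) and 0.53 ± 0.10 (SE, adjusted p = 0.000643). GPX4, SOD2 and GPX1 were lower in EBV+ lines, with differences of −0.84 ± 0.04 (SE, adjusted p = 4.82e-10), −0.52 ± 0.10 (SE, adjusted p = 0.000887) and −0.19 ± 0.04 (SE, adjusted p = 0.000977). The means of EBV+ and EBV− lines overlapped for SOD1, CAT, SOD2 and GPX1. HGC27 alone of the EBV− lines had less SOD1 than SNU719, and SNU16 alone stood apart in CAT. GPX3, at 0 in both EBV+ lines, was the other gene called (adjusted p = 1.52e-08). GPX7, GPX8 and SOD3 did not pass (adjusted p = 0.234, 0.127 and 1.00).

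**Figure D4:**
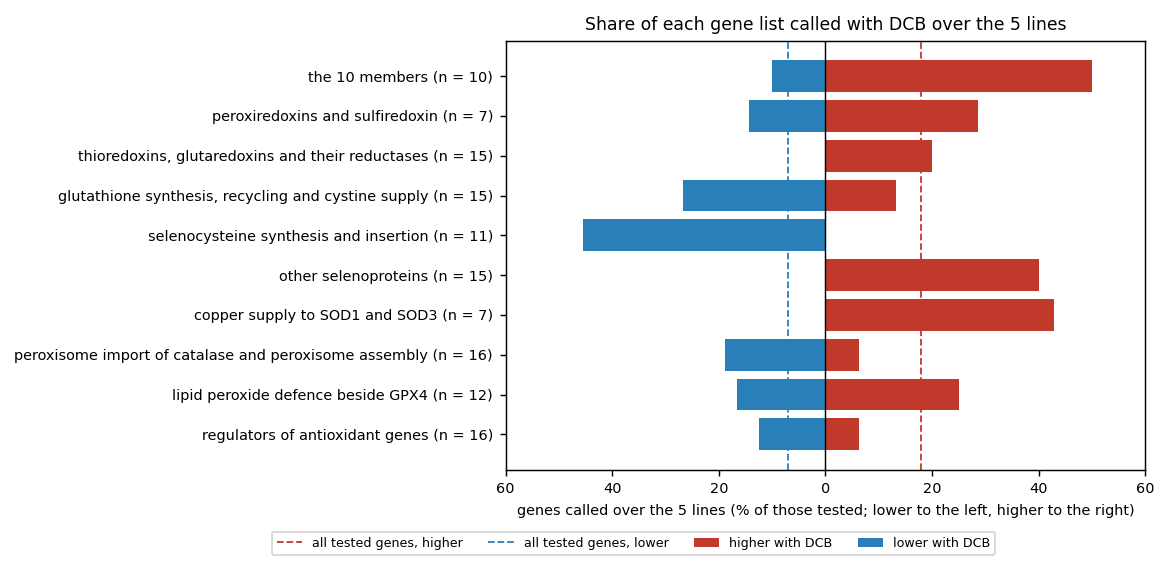
Share of genes called over the 5 lines (x axis, % of the genes tested in each list), with those lower with DCB in blue to the left and those higher in red to the right, for the 10 members and 9 lists of related genes. Dashed lines mark the 17.9% higher and 6.94% lower of all tested genes. Of 11 genes for making and inserting selenocysteine 5 were lower and none higher, and of 15 other selenoproteins 6 were higher and none lower. With equal upper quartiles these counts were 1 lower and 2 higher, and 13 higher and none lower. Of all tested genes, 10415 were called higher and 324 lower under that scaling, to which the dashed lines do not apply. GPX7, SOD3 and, among the other selenoproteins, DIO3 passed the filter only through their DCB libraries.

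The other enzymes that remove peroxides or supply the members were described by counts over the 5 lines, against 17.9% higher and 6.94% lower of all genes and a median difference over all genes of 0.15. List counts under other scalings stand against other backgrounds of the 27350 genes. These were 5810 higher and 1245 lower with equal library totals, and 10415 higher and 324 lower with equal upper quartiles. Of 7 peroxiredoxins and sulfiredoxin, PRDX1 and PRDX5 rose and PRDX2 fell, with a list median of −0.05. PRDX1, an abundant cytosolic peroxiredoxin, was called higher in all 5 lines, most in HGC27 with 3799 and 3909.7 with DCB, against 1515 and 1473 with DMSO, and by less in the other lines, such as SNU719 with 3372 and 3365 with DCB, against 2702 and 2700.2 with DMSO. PRDX3, the mitochondrial peroxiredoxin, was higher in HGC27, with 855 and 756 with DCB, against 522 and 528 with DMSO, and lower in the 3 CIMP+ lines, with for example 899 and 851 with DCB, against 1237 and 1252 with DMSO in AGS. Of 15 thioredoxins, glutaredoxins and their reductases 3 rose and none fell, with a median of 0.12. TXNIP, which binds and inhibits thioredoxin, had 108 and 103 with DCB, against 23.8 and 23.8 with DMSO in YCCEL1 and 2528 and 2589 with DCB, against 2399 and 2395 with DMSO in HGC27, and was called in the 3 CIMP+ lines. It was called higher in HGC27 too with equal library totals (0.23, adjusted p = 0.0208). With equal upper quartiles it was called higher in both HGC27 (0.38, adjusted p = 0.000979) and SNU16 (0.26, adjusted p = 0.0328). Over the lines the differences of PRDX2 (−0.20) and PRDX3 (−0.19, not called) turned to 0.11 and 0.12 with equal upper quartiles, and neither gene was then called lower in any line (for PRDX3 in the CIMP+ lines, adjusted p = 0.0844 to 0.474). Under that scaling 4 genes of the first list and 10 of the other rose and none fell.

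Of 15 genes of glutathione synthesis, recycling and cystine supply, 2 rose and 4 fell, with a median of −0.06. The γ-glutamyltransferases GGT1 and GGT5, which cleave extracellular glutathione, were called higher in 4 lines each. GGT5 had 179 and 212 with DCB, against 5.66 and 1.33 with DMSO in YCCEL1, and GGT1 had 150.3 and 86.8 with DCB, against 4.63 and 3.02 with DMSO in SNU719. SLC7A11 and SLC3A2, the subunits of the cystine importer that feeds glutathione synthesis, were called lower in 3 and 4 lines. SLC7A11 had 51.0 and 78.2 with DCB, against 943 and 943 with DMSO in AGS and 390.5 and 402 with DCB, against 1418 and 1431 with DMSO in HGC27, and its values overlapped in neither line. In SNU719, where neither was called, SLC7A11 had 595 and 687 with DCB, against 583 and 561 with DMSO. With equal upper quartiles 6 genes of the list rose and 2 fell (SLC7A11 and SLC3A2), and in SNU719 SLC7A11 (0.54, adjusted p = 0.0120) and SLC3A2 (0.42, adjusted p = 0.000306) were called higher.

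Of 11 genes of selenocysteine synthesis and insertion, 5 fell (EEFSEC, SEPHS1, SEPHS2, SARS1 and LRP8) and none rose, with a median of −0.24. SARS1, the seryl-tRNA synthetase that charges the selenocysteine tRNA among others, was lower in 4 lines and had 1459.9 and 1392 with DCB, against 4142 and 4456 with DMSO in HGC27. Scaling to equal library totals left 2 of these falls, and equal upper quartiles left 1 and raised 2 others (PSTK and TRNAU1AP). Of 15 other selenoproteins tested, 6 rose (SELENOM, SELENON, SELENOS, MSRB1, DIO1 and DIO3) and none fell, with a median of 0.30. SELENOM, a redox protein of the endoplasmic reticulum, was called higher in 4 lines, with 126 and 147 with DCB, against 6.44 and 2.66 with DMSO in AGS and 209 and 183 with DCB, against 50.3 and 35.5 with DMSO in SNU16, while HGC27 had 279.9 and 240.2 with DCB, against 364 and 347 with DMSO. Of the 2 glutathione peroxidase genes outside the 10, GPX5 was tested and not called, with 72.5 and 41.5 with DCB, against 73.7 and 92.1 with DMSO in AGS and values of at most 1.53 elsewhere. GPX6 stood above 0 in 1 library, at 0.909.

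Of 7 genes of copper supply to SOD1 and SOD3, 3 rose (CCS, ATOX1 and SLC31A2) and none fell, with a median of 0.32. ATOX1, a copper chaperone, was called in YCCEL1, AGS and HGC27, with 262 and 199 with DCB, against 123 and 116 with DMSO in AGS. Of 16 genes of peroxisome assembly and catalase import, 1 rose and 3 fell (PEX2, PEX5 and PEX11A), with a median of −0.15. With equal upper quartiles 4 of them rose and none fell. Of 12 genes of lipid peroxide defence beside GPX4, 3 rose (AIFM2, TFRC and GCH1) and 2 fell (DHODH and PCBP1), with a median of 0.03. With equal library totals 4 rose and 1 fell (DHODH), and with equal upper quartiles 9 rose, PCBP1 among them, and none fell. FTH1, the ferritin heavy chain, was called lower in 4 lines and higher in SNU719, where it had 21712 and 21623 with DCB, against 8758 and 8655 with DMSO. Of 16 regulators of antioxidant genes, 1 rose (MAFF) and 2 fell (NFE2L2 and NFKB1), with a median of −0.13. With equal library totals 2 rose and 1 fell (NFE2L2), and with equal upper quartiles 7 rose and none fell. NFE2L2, which encodes NRF2, was called lower in 4 lines, with 803 and 731 with DCB, against 1215 and 1216 with DMSO in SNU719 and a difference over the lines of −0.40 ± 0.06 (SE, adjusted p = 0.000225). With equal library totals it was called in SNU719 and AGS only, and with equal upper quartiles in no line (adjusted p = 0.0672 to 1.00) and not over the lines (−0.09, adjusted p = 0.268). TFAM, a factor for mitochondrial DNA, was called lower in the CIMP+ lines and higher in HGC27, where it had 548 and 545 with DCB, against 337 and 417 with DMSO. With equal upper quartiles TFAM was not called in AGS (−0.16, adjusted p = 0.303).

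The choice of scaling moved most genes together. Equal upper quartiles raised the median difference of all tested genes by 0.26 over the lines and by 0.18 to 0.36 in single lines, and equal library totals raised it by 0.03 to 0.13. Calls over the lines were 4901 higher and 1897 lower with the deposited scaling, and 10415 higher and 324 lower with equal upper quartiles. No scaling turned the sign of GPX1 in the CIMP+ lines, of GPX4 in SNU719 and AGS, of SOD1 in HGC27 or of CAT in any line. Among the related genes, equal upper quartiles turned the sign in YCCEL1 for NFE2L2 (0.01), SARS1 (0.09) and FTH1 (0.18), and for PCBP1 over the lines (0.18).

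Across the 20 libraries, the gene whose log2 values correlated most with each member, among genes with a mean of at least 10, was taken as a description of likeness. Libraries of a line and treatment share their source, so these correlations carry no p. GPX1 was most like TEP1 (r = 0.922) and HEPHL1 (r = 0.918), and within lines the correlations were 0.779 and 0.888. GPX2 was most like PRSS3 (r = 0.990) and LLGL2 (r = 0.987), which rested on the difference between lines, since within lines r was 0.0973 and 0.158. PPM1K was among the 2 genes most like GPX3 (r = 0.936), and GPX4 was most like PRR5L (r = 0.964) and PRAF2 (r = 0.937). GPX7 was most like MAGEA9B (r = 0.936) and INHBB (r = 0.907), and GPX8 was most like PBX2 (r = 0.967) and ATP2B4 (r = 0.949). Within lines r of GPX8 was 0.717 with PBX2 but −0.0878 with ATP2B4, a likeness that thus rested on the difference between lines. SOD1 was most like NRARP (r = 0.946) and SCML1 (r = 0.931), SOD2 was most like ETFA (r = 0.931) and JTB (r = 0.924), and SOD3 was most like FXYD2 (r = 0.937) and CDSN (r = 0.903). The pairs of SOD2 also rested on the difference between lines, since within lines r was 0.152 and 0.105. For the pairs of GPX3, GPX4, GPX7, SOD1 and SOD3, r within lines ran from 0.72 to 0.938. CAT was most like PHF2 (r = 0.910) and TBCK (r = 0.893), and within lines these correlations were 0.901 and 0.921.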

How the data were processed

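RNA-seq of 5 gastric cancer lines was analysed from the table that the authors deposited, whose values are a normalized signal per gene and not whole counts, so no count model was fitted. The submitters' notes give GRCh37 with STAR (2.5.2b), featureCounts (version 1.5.1) and DESeq2 (version 1.14.1), and the labels a poly(A) kit, while the study's methods name strand-specific 3′ libraries and GRCh38. Of 60064 gene IDs found in a GRCh38 annotation, 92.6% had the same coordinates. EBV status came from the series design and CIMP status from the study. HGC27 is the labels' name for the line that the study's methods call MKN74.

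Genes whose values summed to more than 10 (27350 of 60232) were tested as log2(value + 1) in limma 3.58.1 (R 4.3.3, lmFit and eBayes with trend, two-sided, Benjamini-Hochberg over all genes). Effects in each line and their differences came from 1 fit of 10 groups, and the effect over the lines from line plus treatment. The fit recovered known changes when tested on simulated data, where changes were placed only in genes above a set level in DMSO. That setting did not cover genes of very low values such as GPX7 and SOD3. Members and lists were chosen with earlier results of these data known. Named were all members, the 2 genes most correlated with each, and genes of each list called in 3 or more lines in 1 direction, at most 4 a list by size over the lines. Other genes called in a list of few calls were named after their values were seen. Some genes that met the rule are not reported here. Alternatives were pseudocounts of 0.5 and 5, other filters and scalings, no trend, a replicate block, lines fitted alone and each library left out. Figures used matplotlib.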

Additional observations from a re-analysis of the deposited data

Results flagged for a closer look

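The response to DCB differed between the 5 lines, by a moderated F test in limma, for 7 members. The largest and smallest line effects lay 1.07 apart for GPX1, 0.55 for GPX4, 0.98 for SOD1 and 1.41 for CAT on the log2 scale. For GPX3, GPX7 and SOD3, which were listed at 0 in some groups, the adjusted p was 0.000317, 0.0305 and 0.00351. Effects in EBV+ lines minus those in EBV− lines were 0.59 for GPX1, 0.18 for GPX4, −0.28 for SOD1 and −0.46 for SOD2, and SOD3 had an adjusted p of 0.0238. Effects in CIMP+ lines minus those in CIMP− lines were 0.87 for GPX1, 0.27 for GPX4, −0.52 for SOD1 and −0.61 for CAT, and GPX3 and SOD3 had adjusted p-values of 0.0124 and 0.00164. All of these differences between groups of lines were called by the test of the difference itself, which used the spread between libraries and not between lines. With 2 libraries in a group, no single library could be tested as standing apart from its group.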

How the results depend on the processing

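The number of members called kept within 1.5 times under most alternatives, with these exceptions. In YCCEL1, 3 members were called, and 5 with equal library totals, 5 with equal upper quartiles and 1 with the line fitted alone. Over all 27350 genes, 4470 were higher and 1209 lower in YCCEL1 with equal library totals, and 7060 and 326 with equal upper quartiles. In HGC27, 6 were called, 3 with the replicate block, 2 with the line fitted alone, and 2 to 6 with 1 library left out. In SNU16, 1 was called, 0 with a pseudocount of 0.5, 0 without a filter on low values, 2 with equal upper quartiles, 0 with the replicate block, 0 with the line fitted alone, and 0 to 1 with 1 library left out. Of all genes, 2153 were called higher in SNU16 and 199 lower with equal upper quartiles. For EBV+ against EBV− effects, 5 were called, 3 without a filter on low values, 3 without a trend, and 2 to 5 with 1 library left out. Equal upper quartiles turned the sign of SOD2 in YCCEL1 (0.24), SNU719 (0.13), SNU16 (0.19) and between CIMP+ and CIMP− lines (0.019), of GPX2 in SNU719 (0.21) and SNU16 (0.079), of SOD1 in SNU719 (0.11) and AGS (0.12), of GPX1 in HGC27 (0.080) and of GPX4 in SNU16 (0.13). Equal library totals turned GPX4 (0.0022) and SOD2 (0.056) in SNU16. Leaving out 1 library gave −0.024 to 0.092 for GPX1 in SNU16, −0.23 to 1.08 for GPX8 in SNU16, −0.077 to 0.060 for SOD2 in SNU16, −0.56 to 0.0057 for GPX8 between EBV+ and EBV− lines, and −0.23 to 0.025 for SOD2 between CIMP+ and CIMP− lines, none of them called. The cause was not tested. The deviations of same-numbered libraries correlated at −0.04 to 0.02, so the shared replicate numbers carried no visible shared deviation. With 2 libraries in a group this cannot exclude that the samples were paired. All fits with the replicate block moved 11 of 90 member results across the threshold. Values near 1 rest on about 1 read, which limits GPX7, SOD3 and, in YCCEL1, GPX3.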
